A study of Mus musculus with 7 samples.

Results

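The genes described here are 10 regulators of the G1 phase of the cell cycle: the D-type cyclins Ccnd1, Ccnd2 and Ccnd3, the kinases Cdk4, Cdk6 and Cdk2, the inhibitors Cdkn1a, Cdkn1b and Cdkn2c, and the retinoblastoma gene Rb1. They were chosen by name, as the rows of the deposited comparison table with these symbols, and all 10 were found among its 16760 genes. RNA sequencing was done on mouse cells of strain C57/B6 that lack CD150, the surface protein encoded by Slamf1, and that carry the cell type label HSC (haematopoietic stem cell). There were 3 libraries with a deletion at band 5G2 of chromosome 5, the counterpart of part of human band 7q22 (5G2del-A to 5G2del-C), and 4 wild-type libraries (WT-A to WT-D). The sources used here do not state how long the deletion is, whether it is on one or both copies, how old the mice were or whether every library had its own animal. The p-values therefore cover the spread among libraries, which may be partly technical. The table shows the group of each library but not its sample number, so the letters name libraries only.

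A cell leaves quiescence when D-type cyclins, made in response to growth factors, bind CDK4 and CDK6 and start the phosphorylation of the RB1 protein. Phosphorylated RB1 releases E2F factors, and cyclin E with CDK2 completes the step and opens S phase. INK4 proteins such as CDKN2C bind CDK4 and CDK6 directly, while the CIP/KIP proteins CDKN1A (p21) and CDKN1B (p27) bind cyclin and CDK complexes, above all those of CDK2. Long-term blood stem cells are mostly out of cycle, and in mice the loss of single inhibitors or of the RB family is known to alter how their stem and progenitor cells divide. These steps are largely set on proteins, through phosphorylation, binding and degradation, which RNA levels do not show.

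Expected counts over the table summed to between 37930174 and 52194274 per library, and 3 counts corresponded to between 0.0538 and 0.0860 CPM (read counts scaled to library size). Cux1, the homeobox gene of human 7q22, had a mean of 7.29 ± 0.64 log2 CPM over the 5G2del libraries (SD, n = 3) and of 8.41 ± 0.18 over the WT libraries (SD, n = 4), with every 5G2del library below every WT library. The mutant libraries were uneven: 5G2del-C, at 8.01, came close to the lowest WT library, WT-C at 8.17. Further down lay 5G2del-A (7.06) and 5G2del-B (6.80). Among 8 stem and progenitor markers, Kit ran from 7.98 to 8.23 log2 CPM and Cd34 from 7.88 to 8.48 over the 7 libraries. Slamf1, the marker that was sorted against, measured 0.40, 0.63 and 0.65 log2 CPM in 5G2del-A to 5G2del-C and -0.29, -1.62, -2.22 and -0.26 log2 CPM in WT-A to WT-D, so that it was low throughout but higher in every mutant library. The mean log2 CPM of the 8 markers ran from 6.10 to 6.33 in 5G2del and from 5.66 to 6.02 in WT, without overlap, while their summed CPM overlapped (1251 to 1378 in 5G2del, 1222 to 1392 in WT). Slamf1 and Cd48 had the largest differences toward 5G2del, Cd48 with 4.01 to 4.94 log2 CPM in 5G2del and 2.52 to 4.58 in WT. Ly6a and Flt3 had lower means in 5G2del, so the gap was not shared by all 8. The log2 mean of this list is not read as a difference in a cell type. Transcripts on the lists of single lineages varied between libraries. The 8 measured of 10 listed neutrophil markers summed to between 67.5 and 4126 CPM in 5G2del and between 39.7 and 1308 CPM in WT, with 5G2del-A and WT-A the highest of their groups, and Lcn2 and Ltf at 0 counts in at least 1 library. The 5 measured of 8 B lineage markers summed to between 59.9 and 568 CPM in 5G2del and between 33.5 and 136 CPM in WT, with Igkc among those at 0 counts in at least 1 library. The 9 measured of 10 erythroid markers summed to between 37.1 and 98.7 CPM in 5G2del and between 76.4 and 235 CPM in WT, with Hba-a2 and Slc4a1 among those at 0 counts in at least 1 library. The 7 measured of 8 megakaryocyte and platelet markers summed to between 29.6 and 47.7 CPM in 5G2del and between 25.4 and 40.2 CPM in WT, with Treml1 at 0 counts in at least 1 library, and their mean log2 CPM did not overlap (1.66 to 2.16 in 5G2del, 0.64 to 1.13 in WT). The 3 measured of 8 T and NK markers summed to between 11.7 and 14.8 CPM in 5G2del and between 13.4 and 21.7 CPM in WT, with Il2rb at 0 counts in at least 1 library, and their mean log2 CPM did not overlap either (-0.55 to 0.57 in 5G2del, 0.90 to 1.95 in WT). Macrophage and dendritic markers (6 of 8 measured) summed to between 3.12 and 8.52 CPM in 5G2del and between 7.26 and 13.5 CPM in WT, and stromal and endothelial markers (5 of 8 measured) to between 39.2 and 64.5 CPM in 5G2del and between 40.2 and 68.4 CPM in WT. Near-floor values weigh heavily on the log2 means of the megakaryocyte and T and NK lists. Treml1 lay between -6.60 and -3.80 in every WT library, and Il2rb between -6.42 and -4.04 in every mutant one. For Gp1ba, Ppbp and Cd4 the WT range enclosed the mutant one. Lck was lower in every mutant library, but 5G2del-B and WT-C both stood at 3.06. These log2 means are therefore not read as differences in a cell type. The part of these marker lists in the results below was not tested. In WT-B 1104 genes had 0 counts, more than in any other library, where 83 to 492 did.

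The promoters shown here belong to the 2 genes whose groups did not overlap and for which the RefSeq table holds one, Cdk2 and Ccnd3, and to Cdkn1a, whose values differed widely between libraries. They are the 250 bases before an annotated start, printed along the strand of the gene, from RefSeq on build GRCm38.p6. Of the 10 genes, 7 matched an entry of that table; Ccnd1, Ccnd2 and Rb1 did not. Cdk2 lies at chr10:128705052-128705301 on the minus strand, Ccnd3 at chr17:47593217-47593466 on the plus strand, the second of its 2 listed starts, and Cdkn1a at chr17:29090729-29090978 on the plus strand, the first of its 2 listed starts. Capitals mark an E2F word (TTTCCCGC, TTTCGCGC, TTTGCCGC or TTTGGCGC), the CCAAT box, or the p53 response element with at most 1 mismatch, each searched on both strands.
Cdk2: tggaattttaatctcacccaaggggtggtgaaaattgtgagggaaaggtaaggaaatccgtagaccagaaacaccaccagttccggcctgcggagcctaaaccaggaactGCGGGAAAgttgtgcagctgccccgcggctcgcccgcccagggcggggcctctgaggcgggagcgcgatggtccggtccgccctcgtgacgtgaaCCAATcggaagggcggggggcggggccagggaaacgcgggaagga
Ccnd3: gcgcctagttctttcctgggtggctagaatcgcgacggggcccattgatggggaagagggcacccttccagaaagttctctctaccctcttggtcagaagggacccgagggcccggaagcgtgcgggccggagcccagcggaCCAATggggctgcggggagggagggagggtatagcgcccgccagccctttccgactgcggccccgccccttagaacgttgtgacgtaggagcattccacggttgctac
Cdkn1a: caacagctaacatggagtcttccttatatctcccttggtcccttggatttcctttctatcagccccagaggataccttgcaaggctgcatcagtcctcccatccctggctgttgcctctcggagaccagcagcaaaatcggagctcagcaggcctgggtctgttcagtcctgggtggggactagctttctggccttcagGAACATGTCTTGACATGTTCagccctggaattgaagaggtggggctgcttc
The Cdk2 window held 1 E2F word, GCGGGAAA on the printed strand, and among all 32851 windows of this length 1.86% held one. The printed windows of Cdk2 and Ccnd3 each had 1 CCAAT box, which 33.8% of all windows held, and Cdkn1b, not printed, had 2. The window of the other listed Ccnd3 start had 0. The printed Cdkn1a window held 1 p53 element, 51 bases before the start, and 0.0761% of all windows held one at this tolerance. The window of the other listed Cdkn1a start held 0. The word ATCGAT, bound by the protein of Cux1, was in 0.728% of all windows and in 0 of the 10 windows of these genes. The words TTTGAA (the CHR element of cell cycle genes) and GGGCGG (the GC box) were searched as well, and were in 16% and 32.7% of all windows. TTTGAA was in 0 of the 10 windows, and GGGCGG was in 5 places of the Cdk2 window and in 1 of the printed Ccnd3 window, where no place overlapped the capitals. A match of letters is a description of the window and shows no binding.

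The D cyclins are the growth-factor-driven partners of CDK4 and CDK6. Ccnd3, the form most used by lymphoid and erythroid precursors, measured 5.95, 6.13 and 5.99 log2 CPM in 5G2del-A to 5G2del-C and 5.83, 5.69, 5.68 and 5.69 log2 CPM in WT-A to WT-D. Every 5G2del library lay above every WT library, and WT-A came nearest to the mutant ones. The log2 fold change was 0.30 ± 0.15 (SE), or 1.23-fold, with a 95% interval from -0.02 to 0.63 (limma-trend unadjusted p = 0.0633, adjusted p = 0.989). Ccnd3 was one of the steadiest genes of the table within its groups: its residual SD was 0.082 log2, and of the 10358 genes whose mean exceeded 2 log2 CPM 0.637% had a smaller one. In bulk RNA of this kind, fewer cells of a type and less RNA per cell cannot be told apart. Exons of Bysl, a gene of ribosome assembly on the other strand, overlap those of Ccnd3. Bysl itself averaged 4.00 log2 CPM over the mutant and 3.17 over the WT libraries (log2 fold change 0.83, limma-trend unadjusted p = 0.0134), and since the strand setting of the counting is not stated, reads of the 2 genes cannot be told apart where they overlap.

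Ccnd2, the cyclin of cytokine and stem cell factor signalling in blood cells, was the member of the D cyclins with the most reads. It measured 7.15, 7.59 and 6.67 log2 CPM in 5G2del-A to 5G2del-C, against 7.33, 7.62, 6.59 and 6.70 log2 CPM in WT-A to WT-D. Both groups spanned nearly the same range, with 5G2del-C, WT-C and WT-D low in each. The log2 fold change was 0.08 ± 0.28 (SE; 95% interval -0.54 to 0.69), and its sign turned without 5G2del-B (-0.15), WT-C (-0.080) or WT-D (-0.045). Ccnd1, a D cyclin under tight growth-factor control, measured 5.18, 6.0 and 5.06 log2 CPM in 5G2del and 4.97, 5.63, 4.29 and 5.14 log2 CPM in WT. The groups overlapped, WT-C was the lowest library and 5G2del-B the highest. Its log2 fold change of 0.41 ± 0.32 (SE; 95% interval -0.29 to 1.10) was 0.11 without 5G2del-B and 0.62 without WT-B.

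**Figure D1:**
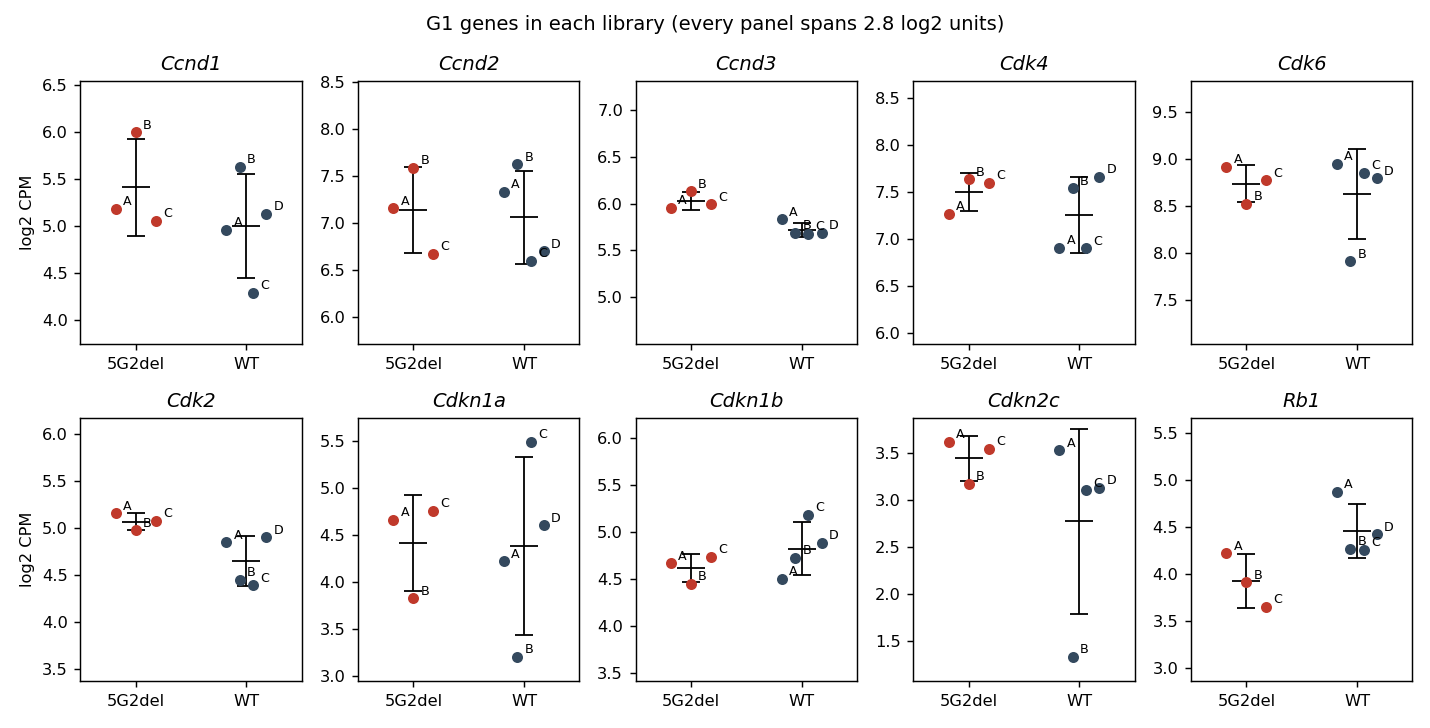
Log2 CPM of each G1 gene in each library, with 5G2del at the left and WT at the right of every panel, letters naming libraries and black bars giving the group mean and SD (n = 3 and n = 4). Ccnd3 and Cdk2 sit higher and Rb1 sits lower in all 5G2del libraries than in any WT library, while WT-B is the lowest library for Cdk6, Cdkn1a and Cdkn2c.

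Among the kinases, Cdk2, the partner of E and A cyclins, had the wider gap between groups. It measured 5.16, 4.98 and 5.08 log2 CPM in 5G2del-A to 5G2del-C and 4.85, 4.45, 4.39 and 4.90 log2 CPM in WT-A to WT-D. The 3 mutant libraries lay within 0.2 of each other and above all WT libraries, of which WT-D came within 0.1 of the lowest mutant one. The log2 fold change was 0.42 ± 0.20 (SE), or 1.34-fold, with a 95% interval from -0.0098 to 0.85 (limma-trend unadjusted p = 0.0546, adjusted p = 0.989). With a library left out, the unadjusted p was 0.0376 without WT-D, 0.0413 without WT-A, 0.0774 without 5G2del-B, 0.0969 without WT-B, 0.110 without 5G2del-C, 0.135 without WT-C and 0.139 without 5G2del-A. Pmel, a pigment cell gene whose exons overlap those of Cdk2 on the other strand, was low in both groups, with means of -0.46 log2 CPM in 5G2del and -2.77 in WT.

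Cdk4, the D-cyclin kinase found in most tissues, measured 7.27, 7.63 and 7.60 log2 CPM in 5G2del-A to 5G2del-C and 6.90, 7.54, 6.90 and 7.66 log2 CPM in WT-A to WT-D. WT-A and WT-C were low and the other WT libraries lay among the mutant ones. Its log2 fold change was 0.25 ± 0.21 (SE; 95% interval -0.22 to 0.72). Cdk6, the D-cyclin kinase whose level is known to set how fast human and mouse blood stem cells leave quiescence, was the member with the most reads. It measured 8.91, 8.52 and 8.77 log2 CPM in 5G2del-A to 5G2del-C and 8.95, 7.91, 8.85 and 8.79 log2 CPM in WT-A to WT-D. The groups overlapped, and WT-B alone stood low. The log2 fold change of 0.11 ± 0.24 (SE; 95% interval -0.41 to 0.64) turned to -0.13 without WT-B. Cdk6 lies on chromosome 5 as well, but at positions 3341485 to 3531008 of mm10 (GENCODE M21), near the other end from Cux1 at 136248135 to 136567490.

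Of the inhibitors, Cdkn1a and Cdkn2c had the widest spread over the 7 libraries of all 10 genes, while Cdkn1b was among the steadier ones. Cdkn1a, the p53 target that encodes p21, measured 4.67, 3.83 and 4.76 log2 CPM in 5G2del-A to 5G2del-C and 4.22, 3.21, 5.49 and 4.61 log2 CPM in WT-A to WT-D. The extremes of all 7 libraries were both WT, with WT-B lowest and WT-C highest. Its log2 fold change was 0.04 ± 0.45 (SE; 95% interval -0.95 to 1.02). That sign has no weight: it was -0.36 without WT-B, -0.14 without 5G2del-C, -0.088 without 5G2del-A, -0.017 without WT-A and -0.011 with quantile normalization.

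Cdkn1b, which encodes p27, the inhibitor that accumulates in resting cells, measured 4.67, 4.45 and 4.74 log2 CPM in 5G2del-A to 5G2del-C and 4.51, 4.73, 5.18 and 4.89 log2 CPM in WT-A to WT-D. The groups overlapped, with WT-C and WT-D above the rest. The log2 fold change was -0.21 ± 0.21 (SE; 95% interval -0.66 to 0.25), and it was -0.088 without WT-C. Cdkn2c, the INK4 inhibitor p18, whose loss is known to enlarge the stem cell pool of mice, measured 3.63, 3.18 and 3.55 log2 CPM in 5G2del-A to 5G2del-C and 3.53, 1.33, 3.11 and 3.13 log2 CPM in WT-A to WT-D. WT-B was far below every other library, with 104 expected counts, and WT-A lay among the mutant libraries. The largest fold change of the 10 genes, 0.67 ± 0.47 on the log2 scale (SE; 95% interval -0.35 to 1.70), was 0.19 without WT-B.

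Rb1, the main substrate of the D-cyclin kinases and the brake on E2F, lay lower in the deletion group. It measured 4.22, 3.91 and 3.66 log2 CPM in 5G2del-A to 5G2del-C and 4.88, 4.27, 4.26 and 4.43 log2 CPM in WT-A to WT-D. All mutant libraries lay below all WT ones, but 5G2del-A came within 0.1 of WT-B and WT-C, and the groups overlapped when each library was shifted to a common median. The log2 fold change was -0.53 ± 0.23 (SE), or 0.694 of the WT level, with a 95% interval from -1.04 to -0.011. Its unadjusted p was 0.0462 and its adjusted p 0.989 in limma-trend. The unadjusted p ranged from 0.0285 without 5G2del-A to 0.170 without 5G2del-C over the libraries left out, and was 0.131 without WT-A, 0.0980 without 5G2del-B and 0.0737 without WT-D. Exons of Lpar6, a lysophospholipid receptor gene, and of Rcbtb2 overlap Rb1 on the other strand. Lpar6 averaged 4.65 log2 CPM over the mutant and 4.75 over the WT libraries, and Rcbtb2 5.17 over the mutant and 4.83 over the WT ones. Both lay above Rb1, which averaged 3.93 over the mutant and 4.46 over the WT libraries. As for Ccnd3, the strand setting is not stated, so reads cannot be told apart where these genes overlap.

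**Figure D2:**
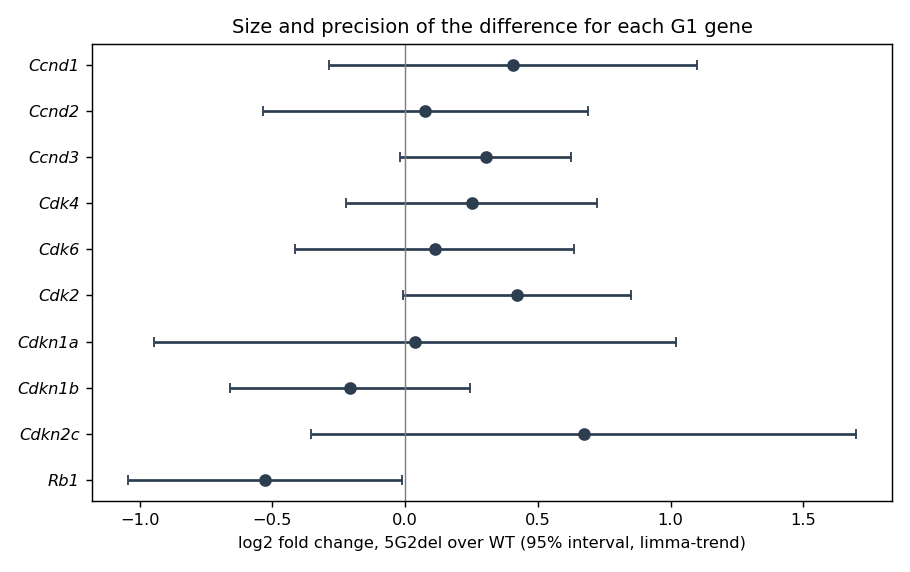
Log2 fold change of 5G2del over WT for each G1 gene (points) with the 95% interval from limma-trend (bars), grouped by role from top to bottom as cyclins, kinases, inhibitors and Rb1. The interval of Rb1 ends just below 0, at -0.011, those of Cdk2 and Ccnd3 begin just below 0, and the interval of Cdkn2c is the widest, from -0.35 to 1.70.

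Counted together, 0 of the 10 genes passed an adjusted p of 0.05 in limma-trend, where 0% of all 16760 genes did. At an unadjusted p under 0.05 there was 1 of 10, Rb1, and over all genes the share was 3.91%. The authors' deposited table also held 0 calls among the 10 after adjustment (0% of all genes) and 1 before it, again Rb1 (p = 0.0449 in the authors' deposited table, against 3.73% of all genes under 0.05 there). Without the trend, limma gave 0 of 10 at either threshold. The groups did not overlap for 3 of the 10 genes, and for 5.70% of all genes. Of the 3, Ccnd3 and Cdk2 were higher in 5G2del, where 2.92% of all genes were, and Rb1 was lower, where 2.78% were. With a common median this count was 2. Without 1 library at a time it was 3 or 4, but leaving a library out cannot make separated groups overlap. The count could therefore not fall in those runs. The mean was higher in 5G2del for 8 of the 10 genes and for 53.3% of all genes, and without WT-B it was higher for 6 of the 10. The median log2 fold change of the 10 was 0.18, beside 0.03 over all genes. The 10 genes were chosen with earlier results of these data known, so these counts are descriptions. The intervals of Ccnd1, Cdkn1a, Cdkn2c and Rb1 reach past a difference of 1 on the log2 scale.

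Levels of different genes were compared per kilobase of exon, taking the merged exons of the basic coding transcripts in GENCODE M21. On that scale Cdk4 stood highest, at 6.46 ± 0.20 log2 CPM per kb in 5G2del and 6.21 ± 0.40 in WT (SD, n = 3 and n = 4). Cdk6 came next at 5.21 ± 0.20 in 5G2del and 5.10 ± 0.48 in WT, since its reads spread over 11525 bases of exon against 2053 for Cdk4. In each group every Cdk4 library lay above every Cdk6 library on this scale. Ccnd3 followed at 4.73 ± 0.09 log2 CPM per kb in 5G2del and 4.43 ± 0.07 in WT, and Ccnd2 at 4.39 ± 0.46 in 5G2del and 4.31 ± 0.50 in WT. In WT the ranges of Cdk6 and Ccnd3 and those of Ccnd3 and Ccnd2 overlapped, whereas in 5G2del every Cdk6 library lay above every Ccnd3 library. Within each group every Ccnd2 library lay above every Cdk2 library, while single libraries of Ccnd1 in 5G2del and of Cdkn1a in WT reached the range of Ccnd2. Cdk2 stood at 3.80 ± 0.09 log2 CPM per kb in 5G2del and 3.38 ± 0.26 in WT, and Ccnd1 at 3.51 ± 0.51 in 5G2del and 3.10 ± 0.55 in WT. The inhibitors and Rb1 were the lowest. Cdkn1a averaged 2.98 ± 0.51 log2 CPM per kb in 5G2del and 2.94 ± 0.95 in WT, and Cdkn1b 2.43 ± 0.15 in 5G2del and 2.64 ± 0.29 in WT. Rb1 averaged 1.71 ± 0.28 in 5G2del and 2.24 ± 0.29 in WT, and Cdkn2c 2.02 ± 0.24 in 5G2del and 1.35 ± 0.98 in WT, all in log2 CPM per kb. The order was the same in both groups apart from the last 2 genes, which changed places, and neighbours from Cdk2 downward overlapped in WT. In 5G2del the last 2 genes lay below Cdkn1b in every library. With the longest coding transcript as the length, Cdkn1a moved above Ccnd1 in WT.

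**Figure D3:**
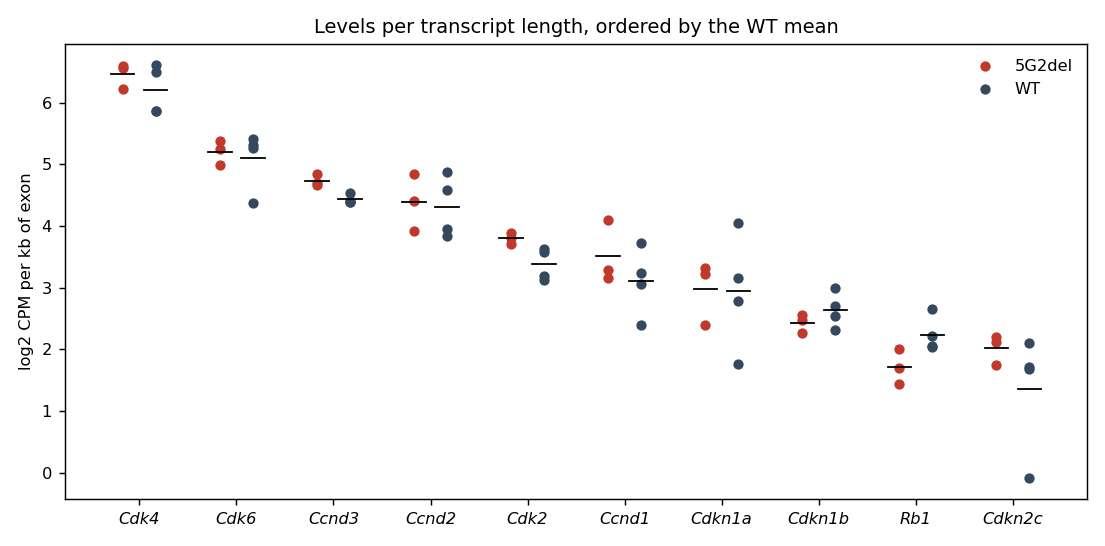
Log2 CPM per kb of exon for each G1 gene, ordered by the WT mean, with 5G2del (red) left of WT (dark blue), points for libraries and short lines for group means. Cdk4 is highest in both groups, the mean of Ccnd2 lies above that of Cdk2, and the inhibitors and Rb1 form the low end.

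Shares within a role, taken from CPM per kb, do not depend on how libraries are scaled against each other. Of the summed D cyclins, Ccnd3 made up 45.2% ± 6.74 in 5G2del and 43.1% ± 7.77 in WT (SD over 3 and 4 libraries). Ccnd2 made up 35.5% ± 4.54 in 5G2del and 39.6% ± 5.95 in WT, and Ccnd1 19.4% ± 3.18 in 5G2del and 17.3% ± 3.94 in WT. The mixture of D cyclins thus differed by less than the spread within a group. Cdk6 made up 35.7%, 24.8% and 28.7% of the summed D-cyclin kinases in 5G2del-A to 5G2del-C and 42.3%, 18.7%, 40.7% and 28.1% in WT-A to WT-D. The WT range enclosed the mutant one. Cdkn2c made up 23.6%, 25.1% and 21.5% of the 3 inhibitors in 5G2del-A to 5G2del-C and 26.7%, 9.23%, 11.6% and 17.4% in WT-A to WT-D. WT-A had the highest share of all, so the groups overlapped. Within a library, Cdk2 lay 0.49, 0.52 and 0.34 log2 above its inhibitor Cdkn1b in 5G2del-A to 5G2del-C. The same difference was 0.34, -0.27, -0.79 and 0.02 log2 in WT-A to WT-D, so that WT-A matched the lowest mutant library and the other WT libraries lay lower. Of the 6 pairs of genes compared in this way, the groups did not overlap for 2. The share over other pairs of genes was not computed, so this count has no background beside it. Cdk6 lay 5.29, 5.35 and 5.22 log2 above its inhibitor Cdkn2c in 5G2del-A to 5G2del-C and 5.41, 6.57, 5.74 and 5.66 log2 above it in WT-A to WT-D. Ccnd3 lay 1.73, 2.22 and 2.34 log2 above Rb1 in 5G2del-A to 5G2del-C and 0.96, 1.42, 1.42 and 1.26 log2 above it in WT-A to WT-D, a direction that the choice of these 2 genes fixes. The pairs and sets were chosen after the values were seen, and no test was made of them.

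No library was extreme in the same way for all genes. WT-C was the lowest of the 7 libraries for 5 of the 10 genes, Ccnd1, Ccnd2, Ccnd3, Cdk4 and Cdk2, and the highest for 2, the inhibitors Cdkn1a and Cdkn1b. WT-B was the lowest for 3, Cdk6, Cdkn1a and Cdkn2c, and WT-A the highest for Cdk6 and Rb1. The 18 proliferation genes listed beside these, such as Mki67, Top2a and the Mcm helicase subunits, had a mean of 5.67, 5.39 and 5.36 log2 CPM in 5G2del-A to 5G2del-C. That mean was 5.91, 4.91, 4.86 and 5.16 log2 CPM in WT-A to WT-D, so that WT-A was the highest and WT-B and WT-C were the lowest of the 7. Its part in the values of the G1 genes was not tested. Without WT-C, the log2 fold changes of Ccnd3 and Cdk2 were 0.29 and 0.33. Without the library with the highest sum of the listed neutrophil markers, 5G2del-A, those of Ccnd3, Cdk2 and Rb1 were 0.34, 0.38 and -0.67.

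**Figure D4:**
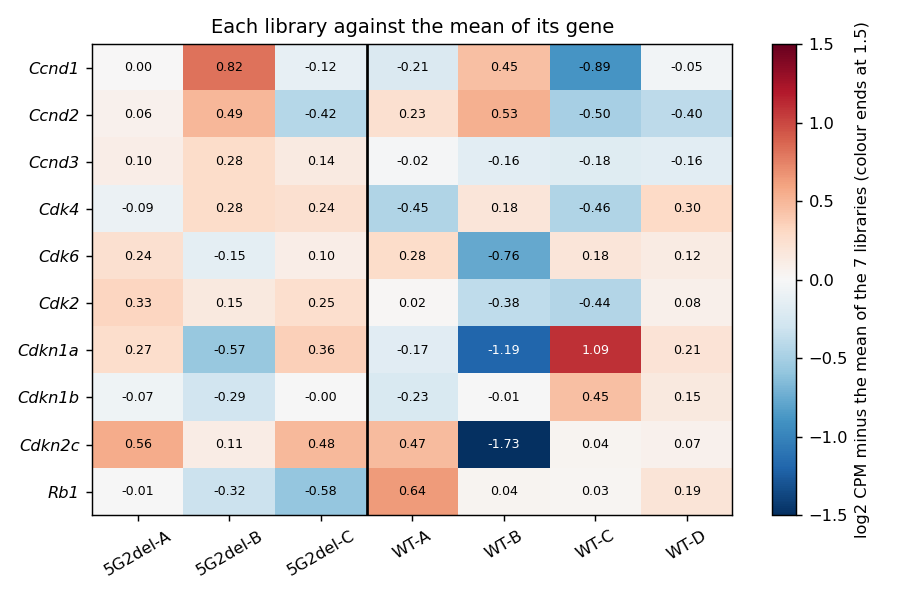
Log2 CPM of each G1 gene in each library minus the mean of that gene over the 7 libraries, with 5G2del left of the black line and WT right of it, red for above and blue for below the mean. The WT-C column is blue for all cyclins, for Cdk4 and for Cdk2 and red for Cdkn1a and Cdkn1b, and WT-B holds the deepest blue, at Cdkn2c.

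For each gene the closest of 10357 other genes was sought, by the root-mean-square difference in log2 CPM over the 7 libraries after centring each gene on its own mean. Cdkn1a was closest to Nr4a1, an immediate early nuclear receptor (0.166 log2), and next to Plk2 (0.203 log2). The closest gene to Cdk6 was Acadsb (0.0429 log2), that to Ccnd2 was Nkrf (0.0534 log2) and that to Cdkn1b was Srsf5, a splicing factor (0.0395 log2). Ccnd3 was closest to Atp5a1, a subunit of ATP synthase (0.0697 log2), and Cdk2 to Fh1, fumarate hydratase (0.0960 log2). Cdk4 was closest to Gm10175 (0.0964 log2), Ccnd1 to Mars, a methionyl-tRNA synthetase (0.124 log2), Rb1 to Arap2 (0.140 log2) and Cdkn2c to Slc9a3r2 (0.176 log2). With 7 libraries and many genes, some close matches arise in any table, and the genes share libraries and depth.

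Around the 10 genes, 81 of 83 listed genes of the pathway were measured, 55 with a higher and 26 with a lower mean in 5G2del, and their median log2 fold change was 0.16, beside 0.03 over all genes. Without WT-C that median was 0.03. In limma-trend 0 of the 81 passed adjusted p 0.05, and 3 had an unadjusted p under 0.05, all higher in 5G2del, where 1.68% of all genes were. The groups did not overlap for 4 of the 81 that were higher and 2 that were lower in 5G2del, beside 2.92% and 2.78% of all genes. The authors' deposited table held 0 calls over all genes. The 3 were E2f1, E2f7 and Cks1b. E2f1, the activating factor held by RB1, measured 4.03, 4.53 and 4.04 log2 CPM in 5G2del-A to 5G2del-C and 3.34, 4.11, 2.00 and 3.49 log2 CPM in WT-A to WT-D. WT-C was far the lowest and WT-B lay among the mutant libraries. Its log2 fold change was 0.97 ± 0.42 (SE; limma-trend unadjusted p = 0.0423, adjusted p = 0.989), and 0.55 without WT-C. E2f7, an atypical repressor that is itself an E2F target, had 3.5, 3.35 and 3.64 log2 CPM in 5G2del and 3.12, 3.25, 2.28 and 2.55 log2 CPM in WT, without overlap, and a log2 fold change of 0.70 ± 0.31 (SE). Cks1b, the cofactor with which SKP2 marks CDKN1B for degradation, had 5.34, 5.22 and 5.58 log2 CPM in 5G2del and 5.04, 4.71, 4.79 and 4.81 log2 CPM in WT, also without overlap. Its log2 fold change was 0.54 ± 0.18 (SE; limma-trend unadjusted p = 0.0106, adjusted p = 0.989), and stayed between 0.44 and 0.62 with any 1 library left out.

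Pocket proteins and E2F-DP factors had a higher mean in 5G2del in 11 of 12 members (median log2 fold change 0.22), or in 8 of 12 without WT-C (median 0.08), with Tfdp1 at 0.24 ± 0.20 (SE), Tfdp2 at 0.03 ± 0.16 and the pocket protein Rbl2, the exception, at -0.07 ± 0.14. The ubiquitin ligase genes split 7 higher and 5 lower (median 0.11), with Ddb1 at 0.06 ± 0.18, Cul1 at -0.11 ± 0.14 and Skp1 at 0.18 ± 0.25. Subunits of the DREAM and MuvB complexes, which repress cell cycle genes in resting cells, split 4 higher and 3 lower (median 0.09), with Rbbp4 at 0.09 ± 0.20, Dyrk1a, the kinase that assembles DREAM, at -0.25 ± 0.18 and Lin9 at 0.49 ± 0.38, or 0.098 without WT-B. E and A cyclins, the CDK-activating kinase and Cdc25a had 3 of 7 higher (median -0.03), with Ccna2 at 0.07 ± 0.38, Ccnh at -0.08 ± 0.19 and Cdc25a at 0.10 ± 0.29. Both further inhibitors had lower means, Cdkn2d (p19 of the INK4 family) at -0.38 ± 0.30, or -0.099 without 5G2del-C, and Cdkn1c (p57) at -0.03 ± 0.56. Cdkn1c measured 2.38, 2.29 and 2.29 log2 CPM in 5G2del-A to 5G2del-C, within the range from 0.67 to 3.23 log2 CPM of WT. Cdkn2a and Cdkn2b were not analysed here.

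Upstream factors split 6 and 6 (median 0.01), with Myc at -0.0069 ± 0.19 (SE), Foxo3, which drives Cdkn1b, at -0.15 ± 0.18 and Trp53 at 0.21 ± 0.14. Beside Cdkn1a, the 11 listed p53 targets split 6 higher and 5 lower (median log2 fold change 0.25, or -0.10 without 5G2del-C and -0.05 without WT-B), with Ccng1 at -0.10 ± 0.14, Sesn1 at -0.27 ± 0.15 and Btg2 at 0.34 ± 0.40. The pattern of Btg2 over the libraries, with WT-B lowest at 4.68 log2 CPM and WT-C at 6.51, had the same lowest library as Cdkn1a. All 18 proliferation genes had a higher mean in 5G2del (median 0.25), but 16 did with quantile normalization, 17 with a common median, 15 without WT-C and 13 without WT-B. In limma-trend 0 of the 18 had an unadjusted p under 0.05, and the groups overlapped for each. Mki67, the marker of cycling cells, had a log2 fold change of 0.0079 ± 0.45 (SE), which turned to -0.11 with quantile normalization, to -0.014 with a common median, and to -0.30 without 5G2del-A, while it was 0.45 without WT-A. Pcna, the replication clamp, had 0.16 ± 0.13, and Mcm6 0.14 ± 0.21. Signs of Ccna2, Ccnh, Cdc25a, Cdkn1c, Tfdp2, Rbbp4, Skp1, Ddb1, Myc, Foxo3, Btg2 and Mcm6 also turned when some 1 library was left out. These lists were drawn up with earlier results of these data known.

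**Figure D5:**
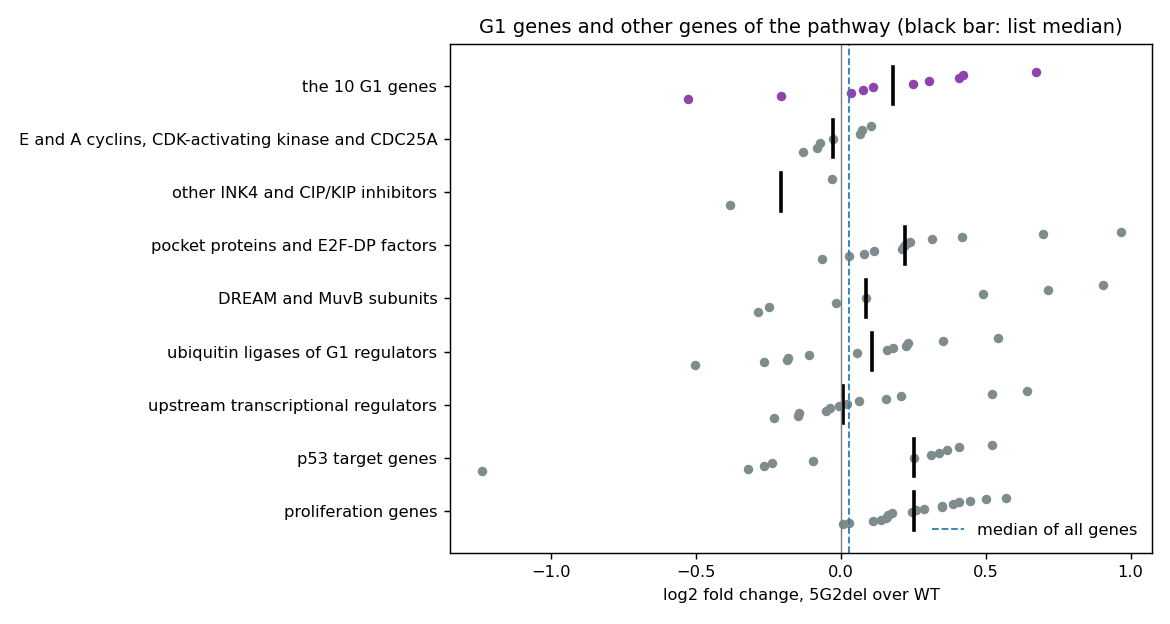
Log2 fold change of 5G2del over WT for the 10 G1 genes (purple) and for the other listed genes of the pathway (grey), 1 point per gene, with a black bar at each list's median and a dashed line at the median of all genes. The medians of the pocket protein and E2F list (0.22) and of the proliferation list (0.25) lie right of the dashed line at 0.03, and E2f1 at 0.97 is the rightmost point.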

How the data were processed

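Paired-end sequencing followed an Ovation RNA-Seq System V2 preparation of total RNA, per the labels' protocols. STAR 2.7.9a, RSEM 1.3.0 and limma 3.50.3, with builds mm10 and GRCh38, are named without a role in the submitters' processing notes; the sources used here state no annotation, low-value filter, scaling or strand. The values used are log2 CPM, deposited by the authors for 16760 genes, together with their log2 fold changes, t scores and p-values. Taking the lowest value of each library as 0 counts with an offset of 0.5, these log2 CPM stepped back to expected counts of 2 decimals, which were used for depth, floors (counting error only) and rebuilt voom weights; as they were not whole, count models were left out. Reads of similar genes are split by RSEM as estimates. Any 2 libraries of a group differed beyond counting error (chi-square of at least 65.5 per degree of freedom), so all 7 were counted.

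The 3 5G2del and 4 WT libraries were compared by limma-trend (limma 3.58.1, R 4.3.3) without covariates, and with Benjamini-Hochberg adjustment over all genes. The script was run on simulated data with larger changes than those of the members, which does not show how it performs at their size. Fold changes are 5G2del over WT. Alternatives were no trend, the authors' deposited fit, rebuilt voom weights, a filter at a mean log2 CPM of 2, log2(CPM + 1), quantile or median scaling, and each library left out. Of the pathway lists, the 3 genes with the highest mean log2 CPM and those with an unadjusted p under 0.05 were named. Gene models matched 16755 of 16760 identifiers. The members and lists were chosen with earlier results of these data known. Values of some single marker genes are not reported here.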

Additional observations from a re-analysis of the deposited data

Results flagged for a closer look

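Of 36 genes examined in the 4 WT libraries, 5 had 1 library set apart from the other 3 by more than 0.829 of the range of the group, a gap that chance alone gives in about 1 group in 20. Cdk6 had WT-B low at 7.91 log2 CPM, Tfdp2 had it low at 6.11 and Lin9 had it low at 2.37, and WT-B was also the library with the most genes at 0 counts. Ccnd3 had WT-A high at 5.83 log2 CPM, next to 5.68 to 5.69 in the other WT libraries, and without WT-A its log2 fold change was 0.34. Myc had WT-D low at 7.68 log2 CPM. Groups of 3 were not examined in this way.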

How the results depend on the processing

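Of the 140 log2 fold changes of the 10 genes under the alternatives, 131 kept their direction, and 7 genes kept it throughout. Those of Ccnd2, Cdk6 and Cdkn1a turned. The runs without the trend and with the filter cannot change a fold change, and the rebuilt voom weights repeated those of the deposited fit. The counts of kept directions, here and for the pathway genes below, include these values. With a library left out, they ran from -0.15 to 0.31 for Ccnd2, from -0.13 to 0.22 for Cdk6 and from -0.36 to 0.41 for Cdkn1a, which was -0.011 with quantile normalization. Of 364 values of the named pathway genes, 336 kept their direction. The others ran, with a library left out, from -0.22 to 0.41 for Ccna2, -0.19 to 0.0062 for Ccnh, -0.072 to 0.31 for Cdc25a, -0.59 to 0.26 for Cdkn1c, -0.058 to 0.17 for Tfdp2, -0.010 to 0.24 for Rbbp4, -0.057 to 0.33 for Skp1, -0.044 to 0.20 for Ddb1, -0.14 to 0.16 for Myc, -0.33 to 0.011 for Foxo3, -0.054 to 0.63 for Btg2, -0.30 to 0.45 for Mki67 and -0.033 to 0.33 for Mcm6; Mki67 was -0.11 with quantile normalization and -0.014 with a common median. The cause was not tested.

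Calls over all genes numbered 0, but 1 without the trend (Sfrp5) and 0 to 1 with a library left out (Thbs1 without 5G2del-C). Members at an unadjusted p under 0.05 numbered 1, but 0 without the trend and 0 to 1 with a library left out. That 1 was Rb1 with all libraries, but Cdk2 in place of Rb1 without WT-A or without WT-D. Members without overlap numbered 3, and 2 with a common median. Members and pathway genes past the adjusted threshold stayed at 0 in every alternative run. No paired analysis was possible because the table's columns carry no replicate number of the samples. Even the lowest value of the 10 genes, Cdkn2c in WT-B, rested on 104 expected counts. The interval widths combine each gene's own spread between libraries with a prior variance that limma-trend estimates from all genes. For Ccnd3, the residual SD was 0.082 log2 and the SE was 0.15.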
